A study of Mus musculus with 12 samples.

Results

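The genes described here are 9 mouse genes of bacterial sensing and antibody transport in the intestinal epithelium: Pglyrp1, Pglyrp2, Nod1, Nod2, Nlrp6, Il18, Pigr, Fcgrt and Lypd8. They were chosen by symbol, with earlier results of these data known. Counts of the 9 beside shares of all genes are therefore description and not a test. Each gene had 1 entry among the 55335 entries of both deposited tables of raw counts. RNA of mouse small intestinal organoids was sequenced from 12 libraries in 4 groups of 3: RANKL, ENR control, RANKL+CSRM617 and RANKL II. All 4 groups share 1 organoid line, labelled line26 wild type, Lgr5GFPDTR/+, which came from a female mouse whose age the labels do not give, so no group holds more than 1 animal. The 3 RANKL-treated groups had 3 µM CHIR99021, a GSK3 inhibitor, with 1.5 mM valproic acid, a histone deacetylase inhibitor, over 3 days, then ENR medium for 1 day, then 100 ng/mL RANKL over 6 days. RANKL+CSRM617 also had 40 µM CSRM617, a small molecule inhibitor of the transcription factor ONECUT2, beside the RANKL. ENR control organoids are labelled as kept for 6 days in ENR medium (EGF, Noggin and R-spondin). Whether they too had CHIR99021 and valproic acid is not stated in the labels. The control names carry the prefix CVENR, whose meaning is not explained, so effects of that pretreatment and of RANKL cannot be told apart. RANKL II is a further RANKL set, made for the CSRM617 experiments and counted in the same table as them.

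Epithelial cells detect bacteria by fragments of their peptidoglycan wall: PGLYRP proteins bind or cut the polymer outside the cell, and NOD1 and NOD2 sense small fragments in the cytosol and signal through the kinase RIPK2 to NF-kB. NLRP6 is a related cytosolic receptor of the gut epithelium that can form an inflammasome with the adaptor ASC, in which caspase-1 processes the cytokine IL-18. In the other direction of traffic, the polymeric immunoglobulin receptor PIGR carries IgA made by plasma cells across the epithelium into the lumen, and the neonatal Fc receptor, whose heavy chain is encoded by Fcgrt, carries IgG. RANKL is the cytokine that induces M cells, the antigen-sampling cells over lymphoid follicles.

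The 9 genes lie on 7 chromosomes of GRCm38, and all are annotated as protein-coding by GENCODE M21. Pglyrp1 (ENSMUSG00000030413.7) is on chromosome 7 from 18871331 to 18890459 on the plus strand, and Pglyrp2 (ENSMUSG00000079563.10) on chromosome 17 from 32412459 to 32424167 on the minus strand. Nod1 is on chromosome 6 (54923949 to 54972612, minus strand), Nod2 on chromosome 8 (88647315 to 88688474, plus strand) and Nlrp6 on chromosome 7 (140920902 to 140929192, plus strand). Il18 is on chromosome 9 (50554827 to 50581840, plus strand), Pigr on chromosome 1 (130826684 to 130852249, plus strand), Fcgrt on chromosome 7 (45092990 to 45103851, minus strand) and Lypd8 on chromosome 11 (58379043 to 58390728, plus strand). Exons of Pglyrp2 share 468 bases with an antisense gene, CT485616.1. Fcgrt and Il18 overlap genes on the opposite strand (Gm45669 for Fcgrt, Tex12 and Bco2 for Il18) but share 0 exon bases with them. The sources used here do not state whether counting used strand, and without strand the reads of that overlap cannot be told apart.

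RefSeq promoters of GRCm38.p6, from 250 bases before to 50 bases after each start, were available for all 9 genes as 11 entries and were searched on both strands for 4 motifs. The motifs were the kappaB consensus bound by NF-kB, the IRF motif (GAAA, any 2 bases, GAAA), the ETS motif GAGGAAGT and the ONECUT core ATTGAT, of which none overlapped another in these entries. The kappaB consensus was in 1 of the 11 entries (Pglyrp1) and in 8.5% of 32851 promoters of the same length. The ONECUT core was in 3 entries (Pglyrp2, Nlrp6 and 1 of the 2 Lypd8 entries) and in 7.5% of all promoters. The IRF and ETS motifs were in 0 of the 11, against 3.4% and 3.2% of all promoters. A match describes the letters only and is not evidence of binding. The 3 promoters below are shown because they hold a match and belong to genes that changed at least 2-fold in a comparison below. Capitals mark the matched letters, at -93 to -84 from the start in Pglyrp1 (kappaB, minus strand of the gene), -148 to -143 in Pglyrp2 and -75 to -70 in Nlrp6 (ONECUT core). The RefSeq start of Pglyrp2 lies 3192 bases, and that of Pglyrp1 13359 bases, from the outermost GENCODE start.
Pglyrp1, chr7:18884440-18884739, plus strand: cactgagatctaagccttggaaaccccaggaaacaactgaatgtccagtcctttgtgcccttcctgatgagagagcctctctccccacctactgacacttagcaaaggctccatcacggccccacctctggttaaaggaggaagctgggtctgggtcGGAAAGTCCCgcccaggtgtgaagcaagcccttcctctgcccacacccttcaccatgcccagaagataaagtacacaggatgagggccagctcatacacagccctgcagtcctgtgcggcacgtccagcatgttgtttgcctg
Pglyrp2, chr17:32420926-32421225, minus strand: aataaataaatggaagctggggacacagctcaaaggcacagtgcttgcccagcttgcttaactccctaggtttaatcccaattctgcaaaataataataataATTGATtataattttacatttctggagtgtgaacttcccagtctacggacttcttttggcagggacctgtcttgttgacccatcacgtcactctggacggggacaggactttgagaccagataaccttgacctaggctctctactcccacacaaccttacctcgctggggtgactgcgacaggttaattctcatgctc
Nlrp6, chr7:140920652-140920951, plus strand: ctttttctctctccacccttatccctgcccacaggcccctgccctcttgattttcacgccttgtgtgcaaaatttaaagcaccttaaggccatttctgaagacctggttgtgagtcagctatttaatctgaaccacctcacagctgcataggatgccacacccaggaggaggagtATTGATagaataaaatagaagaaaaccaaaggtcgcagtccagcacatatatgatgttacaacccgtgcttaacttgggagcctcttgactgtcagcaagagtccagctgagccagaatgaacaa

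Libraries held 6351155 to 7719157 counts in RANKL, 5795541 to 7577492 in ENR control, 10225102 to 14041947 in RANKL+CSRM617 and 8669153 to 11241811 in RANKL II. The 2 loci that collect ribosomal RNA reads took 9.712% to 10.7% of counts in RANKL, 21.87% to 35.52% in ENR control, 15.27% to 15.77% in RANKL+CSRM617 and 6.438% to 6.714% in RANKL II. The median log2 fold change of RANKL+CSRM617 over RANKL II ran from -0.90 for genes under 40% transcript GC to 0.59 for genes over 60%, and that of RANKL over ENR control from 0.52 to -0.41. The 9 genes have transcripts of 45.1% to 57.1% GC, and values with GC offsets (a per-library correction for transcript GC) stand beside many of the results that they change. The libraries were mostly epithelial by their markers: enterocyte, goblet and Paneth cell genes had counts in every group. Igha and Ighm of plasma and B cells had 0 counts in all 12 libraries, and the 10 plasma and B cell markers summed to at most 16 CPM. Of these, Pou2af1 and Cd79b were called higher with RANKL (log2 fold changes 1.37 and 1.97), Cd79b through RANKL libraries only. The 10 neutrophil markers summed to at most 0.206 CPM, and the 11 markers of T cells, macrophages and dendritic cells to at most 10.8 CPM. The 10 stromal and endothelial markers summed to 6.13 to 15 CPM. Of these, Pdgfrb was called higher with RANKL (10.64 CPM, against 3.604 CPM in ENR control) and Pdgfra lower (log2 fold change -1.39). M cell markers summed to 1040 to 1110 CPM in RANKL libraries and 59.2 to 64.8 CPM in ENR control libraries. With RANKL 9 of 9 were called higher, against 28.7% of all genes. Gp2 and Sox8 among them had 0 counts in ENR control, passed the filter only through RANKL and had to differ in level. In bulk RNA, a change in the number of cells of a type and a change in RNA per cell cannot be told apart.

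The first comparison asked how 6 days of RANKL changed these genes against ENR medium. RANKL organoids had higher peptidoglycan recognition genes Pglyrp1 and Pglyrp2, higher Nod2, Fcgrt and Lypd8, and lower Pigr, Nlrp6 and Nod1. In all, 5 of the 9 rose and 3 fell at an adjusted p under 0.05 in edgeR, and Il18 did not pass. Among the 5, Pglyrp2 and Fcgrt reached the filter on low counts through RANKL libraries only, which limits these counts. Among all 13570 genes tested, 28.7% were called higher and 28% lower, 56.7% in all. With GC offsets the 9 genes again gave 5 higher and 3 lower, against 27.5% and 25.9% of all genes, 53.4% in all. The median log2 fold change was 0.69 over the 9 genes, the value of Lypd8, and 0.00 over all genes. Pglyrp2 and Fcgrt, tested only through RANKL libraries, both lie above this median and so push it up. Lypd8 itself had overlapping groups and lost its call in some alternatives, as given below. All levels are CPM, the counts scaled to a common library size with TMM factors that correct for library composition, and fold changes are RANKL over ENR control.

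Pglyrp1, a secreted protein that binds bacterial peptidoglycan and is also known from neutrophil granules, had 178.7, 168.1 and 146.2 CPM in RANKL replicates 1 to 3, against 61.82, 67.04 and 62.84 CPM in ENR control. Every RANKL library was above every ENR control library. The means were 164.3 ± 16.5 CPM in RANKL and 63.9 ± 2.76 CPM in ENR control (SD, n = 3 each), a log2 fold change of 1.36 (SE 0.0932, edgeR adjusted p = 6.41e-09). Neutrophil markers, as given above, were at or near 0 in the same libraries.

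Pglyrp2 encodes an amidase that cuts peptidoglycan. It had 1944, 1744 and 1533 counts in RANKL replicates 1 to 3, or 218.2, 197.1 and 207.6 CPM, and 1, 0 and 2 counts in ENR control. The gene was thus at the limit of detection in ENR control and of the same order as Pglyrp1 in RANKL. Summed over libraries, 5221 counts in RANKL against 3 in ENR control give a depth-scaled ratio of 1180 (exact 95% interval 405 to 5740, counting error only). The fitted log2 fold change of 10.07 (SE 0.23) depends on the prior count. It ran from 5.26 on the authors' deposited log2 values to 11.09 without ENR control replicate 3, with 9.29 without ENR control replicate 2, and the gene was called in each alternative. Because 0 ENR control libraries reached the filter on low counts, Pglyrp2 was tested only through its RANKL libraries and had to differ in level.

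The cytosolic sensors moved in different directions. Nod2, the sensor of muramyl dipeptide, had 22.78, 26.11 and 23.43 CPM in RANKL, against 7.104, 4.931 and 8.226 CPM in ENR control, with no overlap. Its log2 fold change was 1.89 (SE 0.168, edgeR adjusted p = 1.41e-07), from 24.11 ± 1.76 CPM in RANKL and 6.754 ± 1.68 CPM in ENR control. Nod1, which senses peptides holding diaminopimelic acid, had 17.06, 21.13 and 22.48 CPM in RANKL, against 39.74, 29.45 and 37.7 CPM in ENR control. The groups did not overlap, and Nod1 fell by 0.81 on the log2 scale (SE 0.138, edgeR adjusted p = 0.000133), or by 0.56 with GC offsets.

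Per kilobase of exon, Nod2 stood at 1.35, 1.25 and 1.05 times the Nod1 level in RANKL replicates 1 to 3 and at 0.182, 0.169 and 0.221 times in ENR control. Nod2 was thus above Nod1 in every RANKL library and below it in every ENR control library. This ratio, chosen after its values were seen, does not depend on library scaling. It averaged 1.22 ± 0.151 in RANKL and 0.191 ± 0.027 in ENR control (SD, n = 3 each; two-sided exact permutation p = 0.1, the smallest that 3 against 3 allow).

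Nlrp6 had 75.54, 67.7 and 67.3 CPM in RANKL, against 221.8, 234.7 and 237.2 CPM in ENR control. The groups lay far apart relative to their spread, at 70.18 ± 4.64 CPM in RANKL and 231.2 ± 8.28 CPM in ENR control, a log2 fold change of -1.72 (SE 0.0833, edgeR adjusted p = 1.15e-10). Il18, the cytokine processed downstream of the NLRP6 inflammasome, was low throughout: it had 3.367, 4.295 and 4.875 CPM in RANKL (30, 38 and 36 counts) and 2.688, 3.065 and 3.199 CPM in ENR control (14, 23 and 14 counts). The log2 fold change of 0.47 (SE 0.25) did not pass (edgeR adjusted p = 0.117, between 0.0681 and 0.289 in the alternatives, with a difference of 0.22 on the authors' deposited log2 values), although the RANKL values lay above the ENR control values.

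Pigr was the most abundant of the 9 genes in ENR control. It had 480.4, 543.5 and 555.2 CPM in RANKL, against 2121, 2381 and 2121 CPM in ENR control. Every RANKL library held less than every ENR control library, at 526.4 ± 40.3 CPM in RANKL and 2208 ± 150 CPM in ENR control, a log2 fold change of -2.07 (SE 0.0902, edgeR adjusted p = 3.65e-11). Pigr was thus 4.2-fold lower in RANKL. Fcgrt moved the other way at a far lower level, with 2.918, 2.938 and 3.521 CPM in RANKL and 1.152, 1.333 and 1.371 CPM in ENR control. Its log2 fold change was 1.26 (SE 0.303, edgeR adjusted p = 0.00209). It rests on 26 counts in each RANKL library and 6 to 10 in each ENR control library. As 0 ENR control libraries reached the filter, Fcgrt too was tested only through its RANKL libraries, and its change was 0.41 on the authors' deposited log2 values.

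Lypd8, a GPI-anchored protein that in mice binds bacterial flagella and keeps motile bacteria off the colonic epithelium, had 265.8, 205.4 and 172 CPM in RANKL, against 172.8, 119.9 and 105.1 CPM in ENR control. The lowest RANKL library and the highest ENR control library overlapped. The log2 fold change was 0.69 (SE 0.212, edgeR adjusted p = 0.0233), and its adjusted p ran between 7.47e-09 and 0.224 in the alternatives. In both groups the level fell from replicate 1 to replicate 3. A fit with the replicate number as a block gave 0.7 (edgeR adjusted p = 1.12e-06). Lypd8 did not pass when ENR control replicate 2 was left out (0.61, edgeR adjusted p = 0.224) or when ENR control replicate 3 was (0.55, edgeR adjusted p = 0.0628). The CPM ranges of the groups did not overlap for the other 8 of the 9 genes, as for 63.3% of all genes tested. Among these 8, Pglyrp2 and Fcgrt were tested only through their RANKL libraries.

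**Figure D1:**
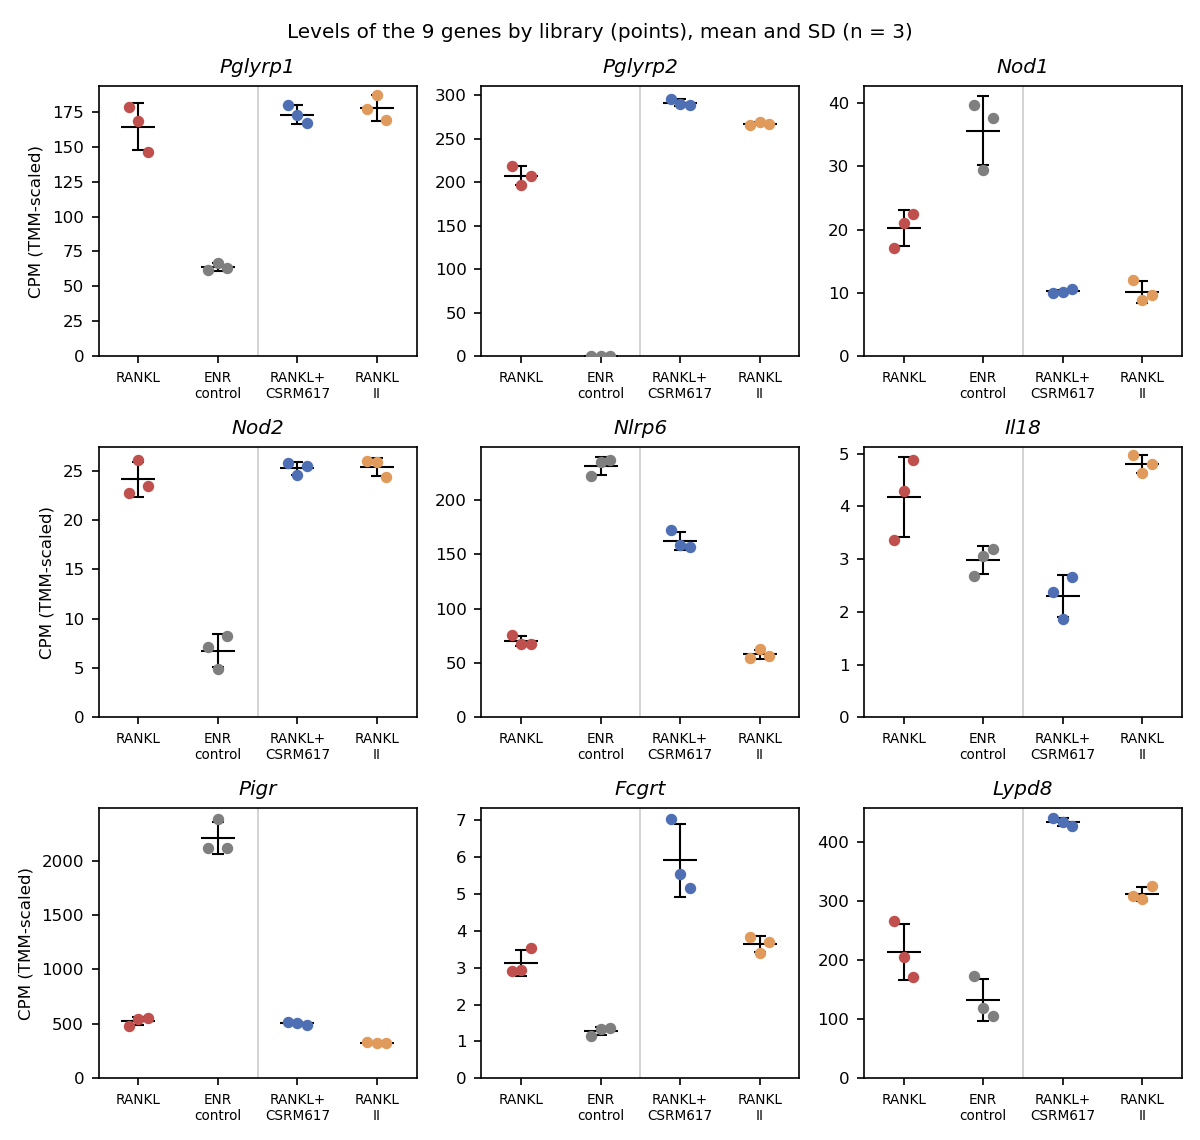
Each panel shows 1 gene, with TMM-scaled CPM on a linear axis from 0; points are the 3 libraries of each group, and bars give mean and SD. The vertical line separates the 2 count tables. Pglyrp2 is at or near 0 in ENR control and at 197.1 to 218.2 CPM in RANKL, while Pigr is lower in RANKL (480.4 to 555.2 CPM) than in ENR control (2121 to 2381 CPM).

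Partners of these genes were described with lists of related genes. List counts of RANKL over ENR control stand against 28.7% of all genes called higher and 28% lower, or 27.5% and 25.9% with GC offsets. In the peptidoglycan and NOD signalling list, 10 of 17 tested genes rose with RANKL and 1 fell, with a median log2 fold change of 0.33 against 0.00 over all genes; with GC offsets 8 rose and 2 fell, with a median of 0.09. Ripk2, the kinase of both NOD receptors, rose to 7.685 ± 0.721 CPM in RANKL, against 2.431 ± 0.801 CPM in ENR control (log2 fold change 1.58, edgeR adjusted p = 4.42e-05). Tnfaip3, which encodes the NF-kB feedback inhibitor A20, rose by 3.84 and the ubiquitin ligase genes Birc3 and Birc2 by 2.07 and 1.50. Slc15a1, an oligopeptide transporter that can import muramyl dipeptide, rose by 1.2 (SE 0.289). On the authors' deposited log2 values, changes of genes with few counts were smaller, at 0.83 for Ripk2, 0.51 for Slc15a1 and, among genes named below, 1.93 for Ly6a.

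The inflammasome and IL-18 list gave 9 higher and 6 lower of 19 tested genes (7 and 7 with GC offsets). Of the 15 called without GC offsets, 3 reached the filter in 1 group only. These had to differ in level, though such a gene need not be called. Gsdmd, which encodes the pore-forming gasdermin D, was at 209.3 ± 28.1 CPM in RANKL and 79.82 ± 15.2 CPM in ENR control, a log2 fold change of 1.40 (SE 0.132). Casp4, the mouse caspase-11 gene, rose by 1.42 (0.92 with GC offsets) and Casp1 by 0.65 (0.34 with GC offsets). Pycard, which encodes the adaptor ASC, fell by 0.59 (SE 0.101, edgeR adjusted p = 0.000129). Nlrc4, a receptor for flagellin and secretion system proteins with the NAIP proteins, was at 0.27 (edgeR adjusted p = 0.0221). That call was lost with GC offsets (0.22, edgeR adjusted p = 0.0543) and on leaving out ENR control replicate 2 (0.18), or either of RANKL replicates 1 (0.23) and 2 (0.26). Il18r1, a chain of the IL-18 receptor, had 80 counts in RANKL against 3 in ENR control, a depth-scaled ratio of 18.1 (exact 95% interval 5.98 to 89.7, counting error only), and its log2 difference on the authors' deposited log2 values was 0.78. As 0 ENR control libraries reached the filter, it was tested only through its RANKL libraries. Il18bp, the secreted IL-18 antagonist, was at 9.639 ± 0.397 CPM in RANKL and 8.381 ± 0.244 CPM in ENR control and did not pass (edgeR adjusted p = 0.296).

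In the list for immunoglobulin transport and IgA supply, 7 of 15 tested genes rose and 3 fell (6 and 2 with GC offsets). B2m, which encodes the light chain shared by the neonatal Fc receptor and MHC class I, was at 137.6 ± 7.72 CPM in RANKL and 60.68 ± 5.33 CPM in ENR control (log2 fold change 1.18, SE 0.0904). Ccl28, a chemokine that draws IgA plasma cells, fell by 2.24 (SE 0.135), and Rab11a, a GTPase of recycling endosomes, rose by 1.14 (0.74 with GC offsets). Trim21, a cytosolic antibody receptor, was at -0.22 and did not pass (edgeR adjusted p = 0.313). Jchain, which encodes the chain that joins IgA dimers for PIGR, had 4 counts over the RANKL libraries and 2 over the ENR control libraries and was not tested.

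Toll-like receptors and adaptors gave 6 higher and 3 lower of 16 (7 and 4 with GC offsets). Cd14, the lipopolysaccharide co-receptor, rose by 1.47 and Tlr3, a receptor for double-stranded RNA, by 1.10 (0.74 with GC offsets), while Sigirr, a negative regulator, fell by 0.71 (-0.46 with GC offsets). Tlr2 (0.03), Tlr4 (-0.22) and Myd88 (-0.20), log2 fold changes all, did not pass; Tlr4 passed with GC offsets (-0.63, edgeR adjusted p = 0.0014). Tlr5, the flagellin receptor, had 9 counts over the RANKL libraries and 16 over the ENR control libraries and was not tested. Cytosolic nucleic acid sensors gave 2 higher and 4 lower of 8 (1 and 3 with GC offsets), with Cgas at -0.78, Samhd1 at -0.39 and Mavs at -0.37. The Mavs call was lost with GC offsets (-0.19, edgeR adjusted p = 0.0991). Of 22 genes with Ly6 and uPAR domains, the protein family of Lypd8, 4 were tested and 3 rose (4 with GC offsets): Ly6a by 3.54, Plaur by 0.62 and Ly6e by 0.39 (0.60 with GC offsets). The gene added with GC offsets was Ly6g6e (0.97, edgeR adjusted p = 0.0205, against 0.0581 without them). As 0 ENR control libraries reached the filter, Ly6g6e was tested only through its RANKL libraries. Reads of the Ly6 and Naip genes can be split between near-identical copies, so their single values are uncertain.

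**Figure D2:**
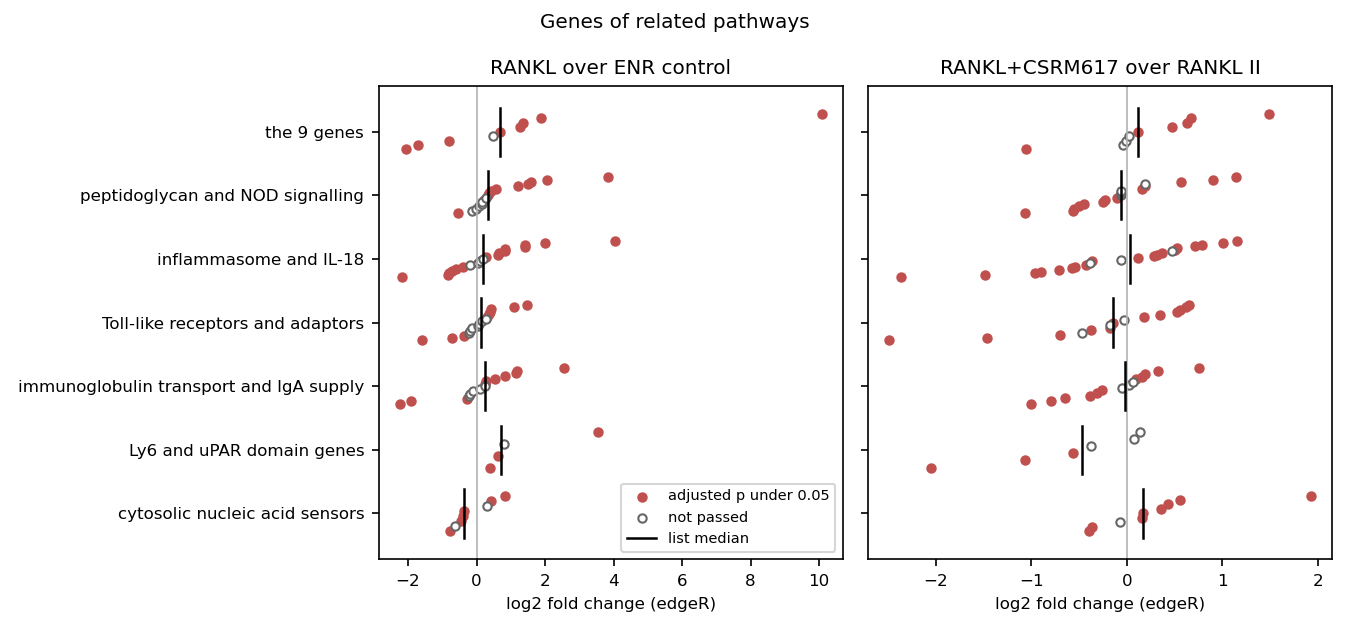
Log2 fold changes of the 9 genes and of 6 lists of related genes, RANKL over ENR control on the left and RANKL+CSRM617 over RANKL II on the right (axes differ in range). Filled points passed an adjusted p under 0.05, open points did not, black lines are list medians, and the vertical spread within a row only separates points. The 9 genes range from -2.07 to 10.07 on the left and from -1.06 to 1.49 on the right.

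The effect of adding the ONECUT2 inhibitor to RANKL was read from the other table. Nlrp6, Pigr and Lypd8 were higher and Il18 was lower in RANKL+CSRM617 than in RANKL II, with and without GC offsets. Fcgrt and Pglyrp2 were also called higher without GC offsets, and Pglyrp1, Nod1 and Nod2 did not pass. That made 5 of 9 higher and 1 lower, in a table where 35.2% of 14167 genes were called higher and 36.2% lower, 71.4% in all. Without GC offsets 6 of 9 were called, near this background, and the count changed with GC offsets. With GC offsets 3 were higher and 5 lower, against 32.9% and 30.6% of all genes, 63.5% in all. Median log2 fold changes were 0.12 over the 9 genes and -0.02 over all genes, or -0.09 and 0.00 with GC offsets. Groups did not overlap for 6 of the 9 genes, as for 73.1% of all genes.

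Nlrp6 had 172.2, 158.2 and 156.6 CPM in RANKL+CSRM617, against 54.6, 62.54 and 56.38 CPM in RANKL II. The groups were well apart, at 162.4 ± 8.6 CPM in RANKL+CSRM617 and 57.84 ± 4.16 CPM in RANKL II, a log2 fold change of 1.49 (SE 0.047, edgeR adjusted p = 1.96e-28), or 1.21 with GC offsets. Of all genes tested, 96% had a smaller absolute fold change. Il18 had 22, 23 and 33 counts in RANKL+CSRM617 and 48, 45 and 60 counts in RANKL II. Its level was 2.305 ± 0.4 CPM in RANKL+CSRM617 and 4.805 ± 0.169 CPM in RANKL II, a log2 fold change of -1.06 (SE 0.197, edgeR adjusted p = 7.1e-06) or -0.82 with GC offsets. On the authors' deposited log2 values the difference was -0.42. The receptor gene and the cytokine gene of this pathway therefore differed in direction.

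Pigr had 513.8, 507.4 and 494.1 CPM in RANKL+CSRM617, against 333.3, 320.7 and 325.1 CPM in RANKL II. All 3 RANKL+CSRM617 libraries lay above RANKL II, and the log2 fold change was 0.63 (SE 0.0284, edgeR adjusted p = 1.64e-23). Lypd8 had 440.8, 434.9 and 428 CPM in RANKL+CSRM617, against 308.7, 303.5 and 325.6 CPM in RANKL II. It rose by 0.47 (SE 0.0297, edgeR adjusted p = 1.94e-18), and the groups did not overlap. Fcgrt had 7.032, 5.538 and 5.163 CPM in RANKL+CSRM617, against 3.834, 3.4 and 3.684 CPM in RANKL II. Its log2 fold change of 0.67 (SE 0.172, edgeR adjusted p = 0.000587) was 0.33 on the authors' deposited log2 values and 0.32 with GC offsets, which ended the call (edgeR adjusted p = 0.0974, the highest in its alternatives, of which the lowest was 9.48e-05).

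The peptidoglycan and NOD sensors differed little. Pglyrp2 had 295.8, 290.4 and 288.4 CPM in RANKL+CSRM617, against 266, 268.9 and 267.4 CPM in RANKL II. It was called higher by 0.12 on the log2 scale (SE 0.03, edgeR adjusted p = 0.000323), and lower at -0.09 with GC offsets (edgeR adjusted p = 0.000903). Pglyrp1 had 179.7, 172.5 and 166.6 CPM in RANKL+CSRM617 and 176.7, 187.1 and 169.1 CPM in RANKL II, and the groups overlapped (log2 fold change -0.04, SE 0.0374, edgeR adjusted p = 0.358). Nod2 was at 25.25 ± 0.652 CPM in RANKL+CSRM617 and 25.4 ± 0.919 CPM in RANKL II (-0.01, SE 0.0746, edgeR adjusted p = 0.941), and Nod1 at 10.27 ± 0.265 CPM in RANKL+CSRM617 and 10.2 ± 1.71 CPM in RANKL II (0.02, SE 0.12, edgeR adjusted p = 0.891). With GC offsets these 3 were called lower, at -0.28 for Pglyrp1, -0.29 for Nod2 and -0.38 for Nod1 (edgeR adjusted p = 5.4e-17, 0.000287 and 0.00246).

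Per kilobase of exon, the ratio of Nod2 to Nod1 was 2.60, 2.44 and 2.44 in RANKL+CSRM617 and 2.17, 2.97 and 2.57 in RANKL II, and the groups overlapped (two-sided exact permutation p = 0.8, 3 libraries against 3). The ratio of Pglyrp2 to Pglyrp1 was 0.934, 0.955 and 0.981 in RANKL+CSRM617 and 0.853, 0.814 and 0.897 in RANKL II. Every RANKL+CSRM617 value was the higher, with a two-sided exact permutation p = 0.1, the smallest that 3 against 3 allow. As these genes were chosen with earlier results of these data known, this p is description and not a test. In the other table the same ratio was 0.693, 0.666 and 0.805 in RANKL and 0.00176, 0 and 0.00412 in ENR control.

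**Figure D3:**
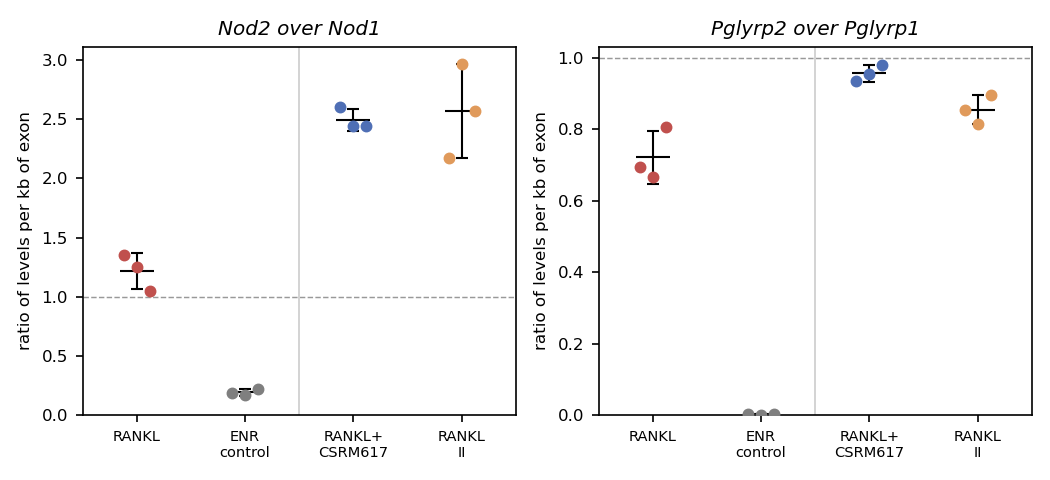
Ratio of levels per kilobase of exon for Nod2 over Nod1 (left) and Pglyrp2 over Pglyrp1 (right) in each library, with mean and SD over 3 libraries; the dashed line marks a ratio of 1 and the vertical line separates the 2 count tables. Nod2 lies above Nod1 in the 9 RANKL-treated libraries (1.05 to 2.97) and below it in ENR control (0.169 to 0.221).

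Mature enterocyte markers moved with the second comparison: 10 of 10 were called higher, with and without GC offsets (Lct reached the filter in RANKL+CSRM617 only), and summed to 9530 to 9860 CPM in RANKL+CSRM617 and 4060 to 4130 CPM in RANKL II. Paneth cell markers gave 6 higher and 1 lower of 7 tested, with sums of 881 to 904 CPM in RANKL+CSRM617 and 561 to 575 CPM in RANKL II. M cell markers gave 4 higher and 5 lower of 9 (4 and 4 with GC offsets), with Gp2, which was lower, over the filter in RANKL II only. Of all genes, 35.2% were called higher and 36.2% lower in this comparison. The part of enterocytes, Paneth cells and M cells in the changes of Nlrp6, Pigr and Lypd8 was not tested. In the first comparison enterocyte markers gave 4 higher and 6 lower of 10 (4 and 5 with GC offsets), with sums of 2820 to 3790 CPM in RANKL and 1480 to 1660 CPM in ENR control, and Paneth cell markers 1 higher and 6 lower of 7. Of all genes, 28.7% were called higher and 28% lower there. The part of enterocytes and Paneth cells in the RANKL changes was not tested either.

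Partner genes in the second comparison were divided, and many values depended on GC offsets. The list counts stand against 35.2% of all genes called higher and 36.2% lower, or 32.9% and 30.6% with GC offsets. In the peptidoglycan and NOD signalling list 5 genes rose and 8 fell of 17 (7 and 4 with GC offsets). Slc15a1 rose by 1.15 (SE 0.162; 0.58 on the authors' deposited log2 values) and Arhgef2, a guanine exchange factor that takes part in NOD signalling, by 0.90 (0.65 with GC offsets). Ripk2 fell by 0.45 (SE 0.141, edgeR adjusted p = 0.00401; -0.25 on the authors' deposited log2 values) and Birc2 by 0.56 (-0.16 with GC offsets), while Tab1 was called higher at 0.57 but not with GC offsets (0.13, edgeR adjusted p = 0.0722). The inflammasome list gave 10 higher and 9 lower of 22 (10 and 7 with GC offsets), of which 1 lower gene reached the filter in RANKL II only. Pycard was at 69.79 ± 0.375 CPM in RANKL+CSRM617 and 48.05 ± 2.54 CPM in RANKL II (log2 fold change 0.53, SE 0.0538, and 0.73 with GC offsets). Naip6 rose by 0.72 (1.02 with GC offsets), Nlrc4 by 0.32 (0.50 with GC offsets), and Txnip, a thioredoxin-binding protein, fell by 0.96 (SE 0.0251). Casp4 fell by 0.90, a call that GC offsets ended (-0.04, edgeR adjusted p = 0.302), and Casp1 was lower at -0.43 and higher at 0.13 with GC offsets. Gsdmd, at -0.06, missed the threshold (edgeR adjusted p = 0.104) but reached it at -0.34 with GC offsets and at -0.10 with upper-quartile factors. Il18bp was at 0.29 (edgeR adjusted p = 0.0272, between 0.0215 and 0.117 in the alternatives), a call that was lost with GC offsets (0.22), upper-quartile factors (0.24), DESeq2 (0.29) or no filter (0.29), and without RANKL II replicate 2 (0.28), RANKL II replicate 3 (0.28) or RANKL+CSRM617 replicate 3 (0.23).

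Immunoglobulin transport genes gave 5 higher and 6 lower of 14 (4 and 6 with GC offsets). Myo5b, the motor of apical recycling endosomes, rose to 331.1 ± 9.24 CPM in RANKL+CSRM617, against 195.6 ± 1.53 CPM in RANKL II (log2 fold change 0.76, SE 0.0315). B2m fell by 0.65, or by 0.08 with GC offsets, and Rab11a by 1.00, or by 0.28 with GC offsets; Trim21 was at -0.05 and did not pass (edgeR adjusted p = 0.761). Toll-like receptors and adaptors gave 6 higher and 6 lower of 15 (5 and 5 with GC offsets). Ly96, which encodes the lipopolysaccharide-binding partner of TLR4, fell by 2.49 (SE 0.28; -0.64 on the authors' deposited log2 values; tested only through RANKL II, as 0 RANKL+CSRM617 libraries reached the filter) and Tlr4 by 1.46 (-0.73 with GC offsets, -0.83 on the authors' deposited log2 values), while Myd88 rose by 0.53 (0.29 with GC offsets) and Irak2 by 0.56 (0.34 with GC offsets). Tlr2 was at -0.47 and did not pass (edgeR adjusted p = 0.118). Tlr5 had 5 counts over the RANKL+CSRM617 libraries and 3 over the RANKL II libraries and was not tested. Nucleic acid sensors gave 6 higher and 2 lower of 9 (4 and 1 with GC offsets), with Zbp1 at 1.93 (0.34 on the authors' deposited log2 values; tested only through RANKL+CSRM617, as 0 RANKL II libraries reached the filter), Dhx58 at 0.56 (0.30 with GC offsets, 0.36 on the deposited log2 values) and Ddx58 at 0.36. Of 6 tested Ly6 and uPAR genes 3 fell and 0 rose (edgeR; the same counts with GC offsets): Ly6a by 2.05 (-1.26 on the authors' deposited log2 values), Ly6d by 1.07 (-0.14 on those values) and Ly6e by 0.56 (-0.89 with GC offsets). Ly6d was tested only through RANKL II, as 0 RANKL+CSRM617 libraries reached the filter. Its call was lost in DESeq2 (-1.04) and without RANKL II replicate 3 (-0.94), RANKL+CSRM617 replicate 2 (-0.999) or RANKL+CSRM617 replicate 3 (-0.78).

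**Figure D4:**
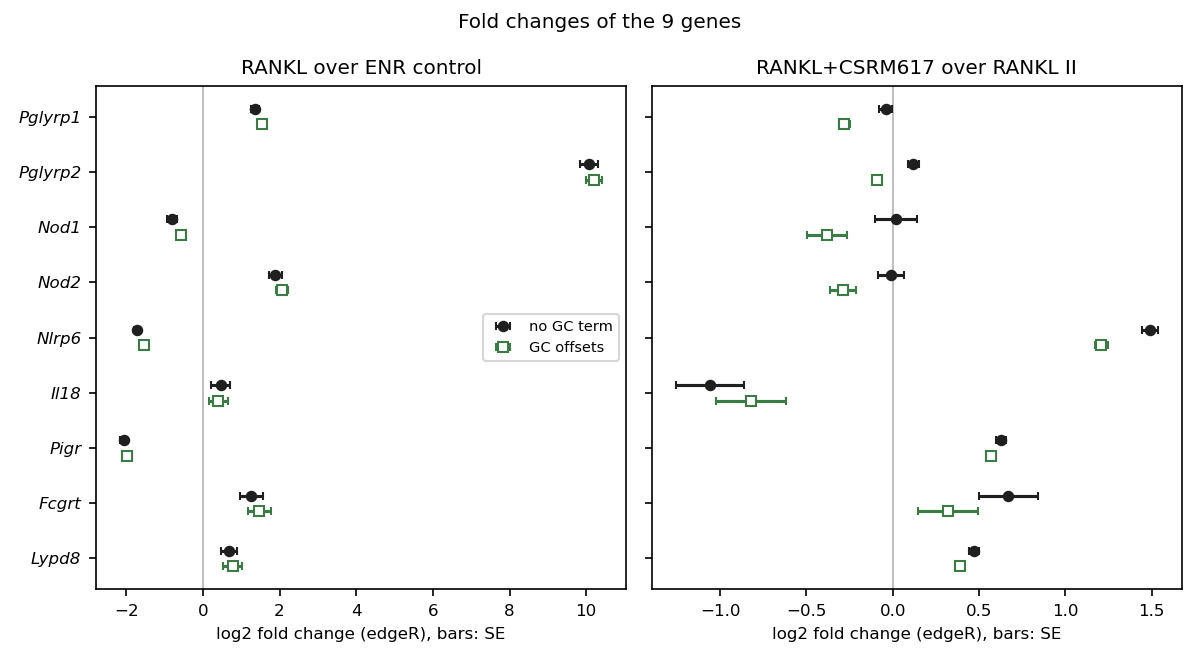
Log2 fold changes of the 9 genes with their SE from edgeR, RANKL over ENR control on the left and RANKL+CSRM617 over RANKL II on the right (axes differ in range); filled circles have no GC term and open squares have GC offsets. On the left no sign changes between the fits; on the right Nod1 (0.02 and -0.38) and Pglyrp2 (0.12 and -0.09) change sign.

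Side by side, 5 of the 9 genes were called in both comparisons, which share no library; 43.3% of the 13263 genes tested in both were. Pigr and Nlrp6 were lower in RANKL than in ENR control and higher in RANKL+CSRM617 than in RANKL II, a class that held 14.3% of genes. Pglyrp2, Fcgrt and Lypd8 were higher in both, as were 7.7% of genes, with the limits of direction and call given above for Pglyrp2 and Fcgrt. Pglyrp2 and Fcgrt also reached the filter of the first comparison through RANKL libraries only. Without GC offsets 0 of the 9 were higher with RANKL and lower with CSRM617 (15.7% of genes) or lower in both (5.62%). With GC offsets in both fits the classes changed: Pglyrp1, Pglyrp2 and Nod2 were higher with RANKL and lower with CSRM617 (11.1% of genes), and Nod1 was lower in both (6.6%). Pigr and Nlrp6 kept their class (10.5% of genes with GC offsets), and of the genes higher in both Lypd8 alone remained (8.95%).

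Genes with the nearest pair of log2 fold changes were looked up among the 9376 genes whose mean log2 CPM reached 3 in both tables, over the 12 libraries. Nearest to Pigr (-2.07 with RANKL, 0.63 with CSRM617) were Wnk4 (-2.11 and 0.65, distance 0.045), Ces2e (-2.16 and 0.67) and Nr1i3 (-2.02 and 0.78), and 36 genes lay within a distance of 0.5. Nearest to Nlrp6 (-1.72 and 1.49) were Gm47283 (-1.75 and 1.49, distance 0.034), Sipa1l2 (-1.60 and 1.29) and Tiam1 (-1.93 and 1.38). Nod2 (1.89 and -0.01) had 94 genes within 0.5, among the nearest of which were Ankrd37 (1.83 and -0.02) and Gm37376 (1.88 and 0.07). Pglyrp2 stood apart from most genes in the plane, with 0 genes within 0.5; its nearest were Gbp9 at a distance of 0.63, Adgrd1 at 0.816 and Zbtb7c at 0.838. Its place on the RANKL axis depends on the prior count.

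**Figure D5:**
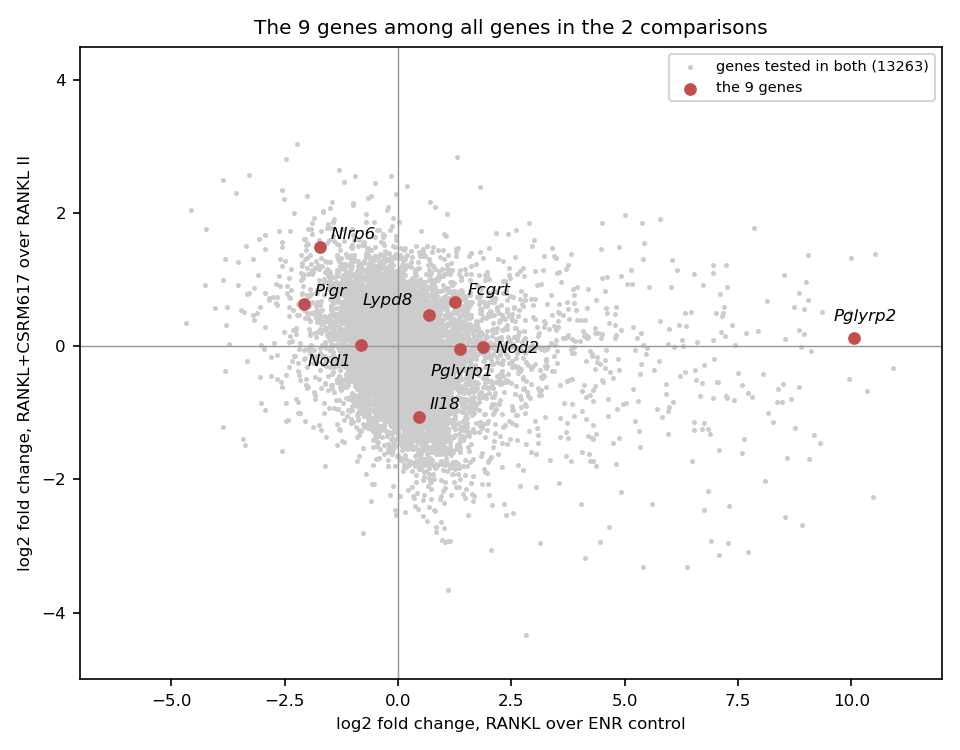
Each grey point is 1 of 13263 genes tested in both comparisons, placed by its log2 fold change with RANKL over ENR control (horizontal) and with RANKL+CSRM617 over RANKL II (vertical); red points are the 9 genes, and 1 gene lies outside the plotted range. Pigr and Nlrp6 lie at the upper left, Pglyrp2 at the far right (10.07 and 0.12).

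Ordered by level per kilobase of exon (CPM per kilobase), Lypd8 led in RANKL (167 ± 37) and overlapped Pigr (131 ± 10.2), followed by Pglyrp1 (89.5), Pglyrp2 (64.1) and Nlrp6 (13.8), then Nod2 (4.81), Il18 (4.06), which overlapped both its neighbours, Nod1 (3.98) and last Fcgrt (1.49). In ENR control Pigr led at 549 ± 37.5, followed by Lypd8 (103), Nlrp6 (45.5), Pglyrp1 (34.8), Nod1 (7.01), Il18 (2.89), Nod2 (1.35), Fcgrt (0.611) and Pglyrp2 (0.0668), and no neighbours overlapped. Pglyrp2 ranked 4 in RANKL and 9 in ENR control, and Nod1 ranked 8 in RANKL and 5 in ENR control.

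In RANKL+CSRM617 the order was Lypd8 (338), Pigr (126), Pglyrp1 (94.1) and Pglyrp2 (90), which overlapped, Nlrp6 (31.9), Nod2 (5.04), and then Fcgrt (2.81), Il18 (2.24) and Nod1 (2.02), which overlapped their neighbours. In RANKL II it was Lypd8 (243), Pglyrp1 (96.8), Pglyrp2 (82.6) and Pigr (81.1), which overlapped, Nlrp6 (11.4), Nod2 (5.07), Il18 (4.66), and Nod1 (2.01) and Fcgrt (1.73), which overlapped.

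The 2 RANKL sets had the same treatment label but were counted and scaled in separate tables, so their levels are set side by side without a test. Pglyrp1, Nod2, Fcgrt and Il18 had overlapping CPM ranges in RANKL II and RANKL. Pglyrp2 had 266 to 268.9 CPM in RANKL II and 197.1 to 218.2 CPM in RANKL, and Lypd8 303.5 to 325.6 CPM in RANKL II and 172 to 265.8 CPM in RANKL. Pigr was lower in RANKL II, at 320.7 to 333.3 CPM, than in RANKL, at 480.4 to 555.2 CPM, and so were Nod1 (8.86 to 12.12 CPM in RANKL II, 17.06 to 22.48 CPM in RANKL) and Nlrp6 (54.6 to 62.54 CPM in RANKL II, 67.3 to 75.54 CPM in RANKL). The Pigr level in RANKL+CSRM617 (494.1 to 513.8 CPM) therefore lay within the range of the first RANKL set.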

How the data were processed

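The 12 organoid libraries were made from total RNA with ribosomal RNA depletion, per the labels' protocols. The authors deposited 2 tables of raw counts per gene symbol, made per the submitters' processing notes with STAR and HTSeq 0.13.5 on mm10 (GRCm38); DESeq2 1.34.0 is also named. The sources used here do not state the STAR version, annotation or strand setting. A pair of normalized tables deposited beside them hold log2 values and served only as an alternative. The main test was edgeR 4.0.16 in R 4.3.3 (quasi-likelihood, TMM scaling, filterByExpr with a minimum count of 10) on the 6 libraries of each table, with Benjamini-Hochberg adjustment over all genes. The filter asked for 1.44 CPM in the first table and 0.932 CPM in the second, in 3 libraries, and all 9 genes passed in both. GC offsets were per-library lowess curves (span 0.3) of log2 CPM deviation on transcript GC content; 53647 of 55335 entries matched GENCODE M21, and 109 symbols were repeated. The fits were also run on simulated counts drawn without a GC trend. That run cannot show how GC content affects the calls. Alternatives were DESeq2 1.42.0, limma 3.58.1 on the deposited log2 values, RLE and upper-quartile factors, no filter, a filter of 1 CPM in 3 libraries, a fit with the replicate number, libraries without ribosomal RNA loci and mitochondrial genes, and leaving out each library.

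The 9 genes and the lists were chosen with earlier results of these data known. Named beside the 9 were 14 partner genes whatever their result, the 3 called genes with the smallest p in each list and comparison, and the 3 genes nearest to Pglyrp2, Pigr, Nlrp6 and Nod2, of which 1 is not reported here. Replicates are labelled as experiments 1 to 3 of 1 line, so p-values measure the spread between these and not between animals. In RANKL II this spread was very small. Pglyrp2 had 266 to 268.9 CPM there, and the ribosomal RNA loci took 6.438% to 6.714% of counts. How far the replicates were independent was not tested, so very small p-values may overstate the certainty. Intervals cover counting error only.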

Additional observations from a re-analysis of the deposited data

How the results depend on the processing

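For RANKL over ENR control, 3 of the 9 genes were lower in each alternative and 4 to 5 higher. Of the recomputed values of the 9 genes, 142 kept direction and call and 2 lost the call (Lypd8 without ENR control replicate 2 or 3). For RANKL+CSRM617 over RANKL II, 5 higher and 1 lower became 3 higher and 5 lower with GC offsets, and 3 higher and 5 lower with GC offsets and the replicate block together. Leaving out each library in turn gave 4 to 5 higher and 3 lower in the first comparison, and 5 higher and 1 lower in the second. In the second comparison signs turned with GC offsets for Pglyrp2 (-0.093), Nod1 (-0.384), Casp1 (0.132) and Trim21 (0.101), and with the replicate block added for Pglyrp2 (-0.093), Nod1 (-0.375), Casp1 (0.128) and Trim21 (0.102). Log2 fold changes near 0 also turned: Nod2 with RLE factors (0.003), DESeq2 (0.002), the deposited log2 values (0.001) and Nod1 with upper-quartile factors (-0.023). Leaving out single libraries turned the sign of Nod2 (-0.04 to 0.027), Nod1 (-0.058 to 0.152), Pglyrp1 (-0.075 to 0.002) and Trim21 (-0.11 to 0.035), none of which passed in the full set. For RANKL over ENR control it turned Tlr4 (-0.376 to 0.018) and Tlr2 (-0.029 to 0.077), which did not pass either. The cause was not tested. Zbp1 gave no value under the filter of 1 CPM in 3 libraries, which it did not pass, and that filter was looser than the main one in the first table (14302 genes tested against 13570).

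The fit with a replicate block gave 5 higher and 3 lower in the first comparison and 5 higher and 1 lower in the second, and it changed no call of the 9 genes. Labels number the experiments 1 to 3 in each group without saying that equal numbers were run together. Deviations of same-numbered libraries correlated at -0.007 to 0.057 in the first comparison and -0.011 to 0.013 in the second, so the numbers were not taken as pairs, and not every library correlated best with its own number. Depth limits Fcgrt and Il18, with 6 to 68 counts a library, and Pglyrp2 in ENR control.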
